A study of Mus musculus with 8 samples.

Results

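The core circadian clock genes of mouse mesenchymal stem cells (MSCs, stromal cells of bone with the capacity for bone, fat and cartilage fates) were followed in RNA-seq libraries from cells kept at low or high oxygen. The 10 genes were chosen by name, without use of their values, as the parts of the transcription loops of the clock: the activators Arntl (also called Bmal1) and Clock, the repressors Per1, Per2, Per3, Cry1 and Cry2, the nuclear receptors Nr1d1 and Nr1d2 (REV-ERB alpha and beta) and the output factor Dbp. All 10 were among the 53465 genes of the count table, and all 10 passed the filter on low counts that left 14369 genes to test.

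The cells came from the bones of wild-type male C57BL/6N mice aged 3 to 5 months. By the methods of the study, cells negative for CD45 and Ter119 and positive for Sca-1 and CD140a were sorted, and the sorted population was divided between 2% O2 (hypoxia, n = 4) and 21% O2 (normoxia, n = 4), both with 5% CO2. The labels date the sort to day 12. By the study, the cells were grown at 2% O2 before the sort. Its experiments were done days after the shift to 21% O2 and concern long-term effects of normoxia. The comparison asks how oxygen changes the transcript levels of these genes in cultured MSCs. Each library held the RNA of a whole culture taken at 1 time, and the hour of harvest is not given in the sources used here, so the phase and the amplitude of a rhythm cannot be read from these data.

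In the mammalian clock, ARNTL and CLOCK form a dimer that binds E-box sequences and switches on the Per, Cry, Nr1d and Dbp genes. The PER and CRY proteins return to the nucleus and repress that dimer, which closes the main loop. A further loop runs through REV-ERB proteins, which repress Arntl at ROR response elements where the ROR receptors activate it, and DBP acts on D-box sequences such as those of Per genes. Most cells of the body carry this clock, bone and marrow stroma included, and in culture it runs on in each cell and is reset by medium changes, serum, glucocorticoids and cAMP signals.

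RefSeq promoter windows (build GRCm38.p6), each running from 250 bases before an annotated transcript start to 50 bases after it, were found for 9 of the 10 genes, in 13 windows, and none was found for Per2. Both strands were searched for the E-box CACGTG, the D-box TTANNTAA, the cAMP response element TGACGTCA and the ROR response element. The 4 windows below are shown because they hold matches to these sequences. Capitals mark the matches.

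Arntl, chr7:113207261-113207560, plus strand: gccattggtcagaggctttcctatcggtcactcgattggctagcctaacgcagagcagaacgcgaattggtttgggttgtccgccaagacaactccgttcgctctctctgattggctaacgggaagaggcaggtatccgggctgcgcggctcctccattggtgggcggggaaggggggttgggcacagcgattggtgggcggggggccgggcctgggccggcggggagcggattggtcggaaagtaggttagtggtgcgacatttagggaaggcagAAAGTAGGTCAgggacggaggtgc

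Per1, chr11:69098699-69098998, plus strand: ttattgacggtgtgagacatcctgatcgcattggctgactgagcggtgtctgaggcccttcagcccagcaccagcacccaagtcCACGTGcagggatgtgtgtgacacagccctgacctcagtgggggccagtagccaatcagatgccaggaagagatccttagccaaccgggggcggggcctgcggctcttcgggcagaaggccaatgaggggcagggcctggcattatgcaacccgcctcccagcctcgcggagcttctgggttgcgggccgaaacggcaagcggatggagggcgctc

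Cry1, chr10:85185005-85185304, minus strand: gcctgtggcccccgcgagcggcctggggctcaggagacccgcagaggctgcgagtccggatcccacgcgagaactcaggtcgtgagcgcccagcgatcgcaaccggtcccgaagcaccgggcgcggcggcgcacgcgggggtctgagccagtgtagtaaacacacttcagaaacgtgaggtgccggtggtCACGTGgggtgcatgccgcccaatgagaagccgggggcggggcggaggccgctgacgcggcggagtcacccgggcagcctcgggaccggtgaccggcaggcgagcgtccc

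Per3, chr4:151044616-151044915, minus strand: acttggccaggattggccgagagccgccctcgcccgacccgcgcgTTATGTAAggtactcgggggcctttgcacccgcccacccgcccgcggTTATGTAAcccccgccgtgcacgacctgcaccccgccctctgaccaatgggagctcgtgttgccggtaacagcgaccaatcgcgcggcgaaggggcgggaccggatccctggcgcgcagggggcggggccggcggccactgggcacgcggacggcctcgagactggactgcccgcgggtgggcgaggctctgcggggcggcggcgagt

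The Arntl window holds the ROR response element AAAGTAGGTCA, beginning at base 27 of the transcript, and such a match is present in 0.384% of 32851 mouse windows of this length. The letters TAGGTCA, which lie within it, are in 2.61% of windows. An E-box begins 166 bases before the start in the Per1 window shown and 60 bases before that of Cry1, against E-boxes in 7.15% of all windows. The Per3 window holds 2 copies of the same D-box, 205 and 158 bases before the start, and 6.0% of windows hold a D-box. No window of the 9 genes held the cAMP response element, which is in 1.79% of all windows, and those of Clock, Cry2, Nr1d1, Nr1d2 and Dbp held none of these letters. The other window of Arntl and that of Per1, at other annotated starts, also held none of these letters. A match describes the sequence only. No match says that the letters are absent from this window and no more.

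The libraries held between 12898291 and 25132141 counts. Hypoxia sample 1 was the deepest, and the other 7 held at most 13433824. A level of 3 counts equals 0.119 to 0.233 CPM (counts scaled to the library size) in these libraries, a limit that covers counting error only. The 7 MSC markers (Ly6a, Pdgfra, Thy1, Eng, Nt5e, Cd44 and Itgb1) summed to between 2018 and 2424 CPM in hypoxia and between 2655 and 3123 CPM in normoxia. By log2 change, Cd44 (0.72), Nt5e (0.59) and Itgb1 (0.44) were called higher and Eng (-0.27, limma-trend, adjusted p = 0.043) lower. Pdgfra (0.24), Ly6a (-0.14) and Thy1 (-0.41) were not called. With the replicate number as a block in the fit, Pdgfra was called higher and Ly6a and Thy1 lower. The 6 blood and macrophage markers summed to between 444 and 889 CPM in hypoxia and between 594 and 1117 CPM in normoxia. Of these, Lyz2 was higher in normoxia by 0.56 (limma-trend, adjusted p = 0.022), and Csf1r (-0.59), Cd68 (-0.28), Cd14 (-0.26), Adgre1 (-0.11, 899 to 2004 counts) and Ptprc, which encodes CD45 (0.081, 140 to 263 counts), were not called. With the block Csf1r and Cd68 were also called lower. All 5 erythroid markers were at 0, the 4 endothelial markers summed to at most 2.57 CPM, the 3 adipocyte markers to between 0.318 and 5.12 CPM and the 3 osteoblast markers to between 5.85 and 23.4 CPM over all samples. The part of these other cells in the clock gene values was not tested, and in bulk RNA fewer cells of a type and less RNA per cell cannot be told apart.

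Clock, Nr1d2 and Nr1d1 were higher in normoxia-cultured MSCs, and no clock gene was called lower (limma-trend, Benjamini-Hochberg adjusted p under 0.05). Clock rose by 0.62, Nr1d2 by 0.40 and Nr1d1 by 0.20 on the log2 scale. These 3 of 10 genes stand beside 34.6% of all tested genes called in either direction, 18.0% higher and 16.5% lower, so the share of clock genes called was near that of the transcriptome. The median log2 change of the 10 was -0.16, against 0.0049 over all tested genes. The labels and the study do not say that samples with equal numbers share a sort, so pairing by number is an assumption. When the replicate number was a block in the fit, 5 of the 10 were called. Per3 and Dbp were lower beside the same 3 higher, where 46.0% of all genes were called, 23.3% higher and 22.7% lower. With the correction for GC content and length the 3 calls were unchanged (30.0% of all genes called), and with the block as well they were 4, the 3 and Per3 (43.3%).

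**Figure D1:**
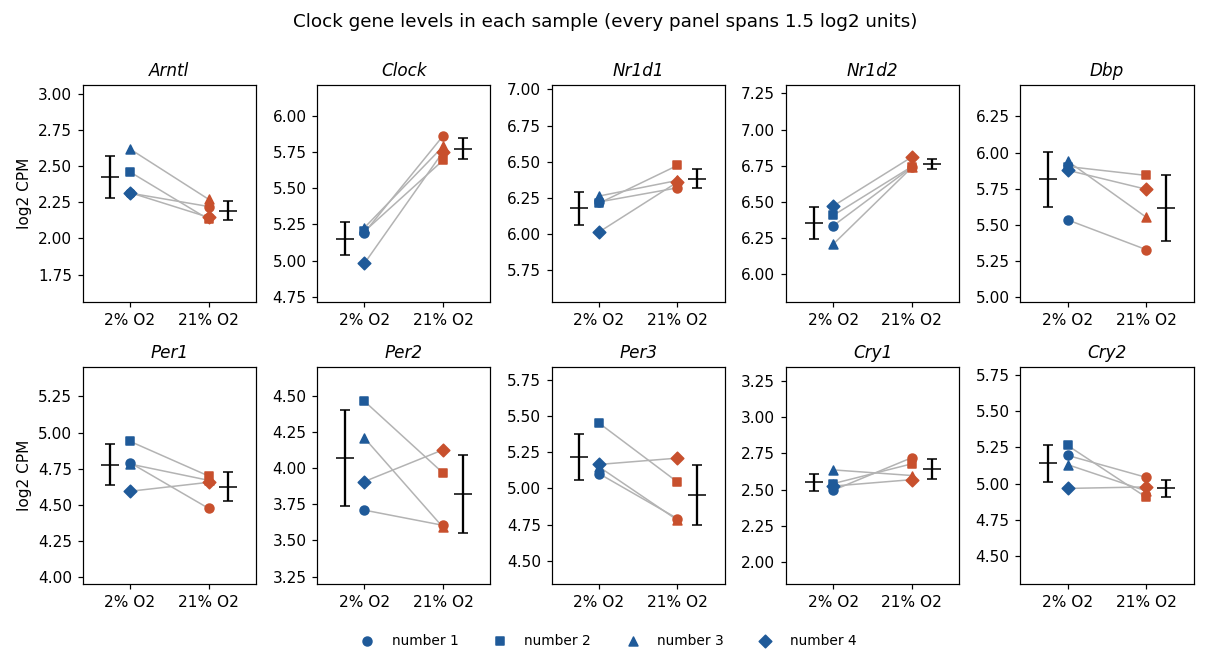
Level of each clock gene (log2 CPM) in the 4 hypoxia (2% O2, blue) and 4 normoxia (21% O2, orange) samples. Marker shapes and grey lines join samples with the same replicate number, black bars give the mean and SD, and every panel spans the same height. Clock, Nr1d1 and Nr1d2 lie higher and Arntl lower in normoxia with no overlap between the groups, whereas the values of the other 6 genes overlap.

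Clock, the bHLH-PAS protein that pairs with ARNTL (chromosome 5, 76209868 to 76304792, GRCm38), was at 5.19, 5.20, 5.23 and 4.98 log2 CPM in hypoxia samples 1 to 4 and at 5.86, 5.69, 5.79 and 5.75 log2 CPM in normoxia samples 1 to 4. Every normoxia sample lay above every hypoxia sample, and hypoxia sample 4 was the lowest of all. Its level was 5.15 ± 0.11 (SD, n = 4) in hypoxia and 5.77 ± 0.071 (SD, n = 4) in normoxia, a change of 0.62 ± 0.073 (SE, limma-trend, adjusted p = 0.00013). The difference within the 4 same-numbered pairs ran from 0.49 to 0.77. By size of change, Clock ranked 1443 of the 14369 tested genes, the highest rank of the 10. It rested on 407 to 870 counts per library.

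Arntl, the other partner of the activator dimer (chromosome 7, 113207465 to 113314126), was at 2.31, 2.46, 2.62 and 2.32 log2 CPM in the hypoxia samples and at 2.22, 2.13, 2.27 and 2.15 log2 CPM in the normoxia samples. All 4 normoxia values lay below all 4 hypoxia values, by a margin that was small beside the spread of the hypoxia samples. The change was -0.23 ± 0.13 (SE) and did not pass the test (limma-trend, adjusted p = 0.19), with a 95% interval from -0.52 to 0.052. Each of the 4 pairs was lower in normoxia, by between -0.35 and -0.093, and the adjusted p stayed at 0.19 with the replicate block. Arntl had 56 to 114 counts per library, the fewest of the 10 genes. Groups that do not overlap were found for 4 of the 10 clock genes and for 32.6% of all tested genes.

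As levels per length, the activators stood in a different ratio in each group. Clock was at 3.75 ± 0.320 (SD, n = 4) times the level of Arntl in hypoxia and at 6.85 ± 0.257 times its level in normoxia, in counts per kilobase of merged exons. The ratio ran from 3.44 to 4.18 in the hypoxia samples and from 6.53 to 7.12 in the normoxia samples, with no overlap. The length used sets the size of the ratio but is the same in every sample. The paralogs that can stand in for either partner were not called: Npas2, which can replace CLOCK, had a log2 change of -0.25 ± 0.19 (SE, limma-trend, adjusted p = 0.33; -0.069 without normoxia sample 1, adjusted p = 0.76), and Arntl2 one of 0.26 ± 0.20 (SE, limma-trend, adjusted p = 0.36).

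Nr1d2, which encodes the haem-binding repressor REV-ERB beta (chromosome 14, 18204054 to 18239127), was at 6.34, 6.41, 6.21 and 6.47 log2 CPM in the hypoxia samples and at 6.74, 6.75, 6.74 and 6.81 log2 CPM in the normoxia samples. The normoxia values were tightly grouped, and all lay above the hypoxia values. The change was 0.40 ± 0.064 (SE, limma-trend, adjusted p = 0.00065), and the pairs differed by between 0.34 and 0.53. Transcripts of Nr1d2 and Clock are poor in GC, at 41.8% and 40.9%. After removal of each sample's trend with GC content and length, the change of Nr1d2 was 0.19 (limma-trend, adjusted p = 0.028) and that of Clock 0.44 (adjusted p = 0.00091).

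Nr1d1, which encodes REV-ERB alpha (chromosome 11, 98767932 to 98775333), was at 6.22, 6.21, 6.26 and 6.01 log2 CPM in the hypoxia samples and at 6.32, 6.47, 6.37 and 6.36 log2 CPM in the normoxia samples. Hypoxia sample 4 was the lowest, and the groups did not overlap. The change was 0.20 ± 0.067 (SE, limma-trend, adjusted p = 0.034), and all 4 pairs were higher in normoxia, by 0.098 to 0.35. The call did not hold without hypoxia sample 4 (0.15, adjusted p = 0.094) or without normoxia sample 2 (0.16, adjusted p = 0.12), 3 (0.20, adjusted p = 0.075) or 4 (0.20, adjusted p = 0.071). The correction for GC content and length gave 0.36 (limma-trend, adjusted p = 0.0018). The 3' part of Nr1d1 shares 263 exon bases with Thra on the opposite strand, whose log2 change was -0.62 (limma-trend, adjusted p = 0.0013) at 1105 to 2874 counts. Whether counting used strand is not given in the sources used here, so reads from the shared bases cannot be assigned to either gene.

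Rora, a receptor that acts at the same element as the REV-ERB proteins and activates Arntl, was at 6.16, 6.33, 6.12 and 6.20 log2 CPM in the hypoxia samples and at 5.89, 6.0, 5.97 and 6.10 log2 CPM in the normoxia samples. The groups did not overlap, and the change was -0.21 ± 0.067 (SE, limma-trend, adjusted p = 0.028). The correction for GC content and length gave -0.39 (limma-trend, adjusted p = 0.00055). Rora lost its call when samples were scaled by library size alone (-0.12, adjusted p = 0.17), and without hypoxia sample 2 (-0.17, adjusted p = 0.068) or 4 (-0.21, adjusted p = 0.056) or normoxia sample 1 (-0.19, adjusted p = 0.063) or 3 (-0.21, adjusted p = 0.059). Rorb, another ROR receptor gene, had 0 to 5 counts per library and fell below the filter. Per kilobase of merged exons, Nr1d1 was at 4.19 ± 0.446 (SD, n = 4) times the level of Rora in hypoxia and at 5.59 ± 0.361 times in normoxia. The ratio of Nr1d2 to Rora was 2.69 ± 0.168 in hypoxia and 4.13 ± 0.178 in normoxia, and neither ratio overlapped between the groups.

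Dbp, the D-box binding factor whose transcript is among the most rhythmic of the clock outputs (chromosome 7, 45705088 to 45710203), was at 5.54, 5.90, 5.94 and 5.88 log2 CPM in the hypoxia samples and at 5.33, 5.84, 5.55 and 5.75 log2 CPM in the normoxia samples. The sample numbered 1 was the lowest in each group, and the groups overlapped. Its change of -0.20 had a SE of 0.12 and an adjusted p of 0.22 in limma-trend alone, and a SE of 0.065 and an adjusted p of 0.015 with the block, and all 4 pairs were lower in normoxia, by between -0.39 and -0.062. Without hypoxia sample 1, which lay below the other hypoxia samples, the change was -0.29 (adjusted p = 0.044) without the block, and without normoxia sample 1, the lowest normoxia sample, it was -0.11 (adjusted p = 0.47). The transcript is rich in GC, at 61.6%, and the correction for GC content and length turned the change to 0.055 (limma-trend, adjusted p = 0.72, with the block 0.46). Dbp shares 539 exon bases with Sphk2 on the opposite strand, which changed by -0.41 (limma-trend, adjusted p = 0.0011). The other factors that bind the D-box were not called: Tef was at -0.10, Nfil3, the repressor of the D-box, at -0.082 and Hlf at -0.71 (adjusted p = 0.11, on 3 to 18 counts). Hlf was called lower with both the block and the correction for GC content and length (-0.86, adjusted p = 0.028).

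None of the 5 repressors passed the test without the block, where 34.6% of all tested genes did. Of the 5, 4 had a negative log2 change, and the median over all tested genes was 0.0049. After the correction for GC content and length, Per1 was no longer negative. Per1, the immediate-early Per gene (chromosome 11, 69095217 to 69109960), was at 4.79, 4.94, 4.78 and 4.60 log2 CPM in the hypoxia samples and at 4.48, 4.70, 4.67 and 4.66 log2 CPM in the normoxia samples. The groups overlapped, because hypoxia sample 4 lay below 3 of the 4 normoxia samples. The change was -0.15 ± 0.089 (SE, limma-trend, adjusted p = 0.21, with the block 0.12), and it was 0.021 after the correction for GC content and length, at a GC content of 59.4%.

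Per2, whose protein is the limiting part of the repressor complex in many tissues (chromosome 1, 91415982 to 91459324), was at 3.71, 4.46, 4.21 and 3.91 log2 CPM in the hypoxia samples and at 3.60, 3.97, 3.59 and 4.13 log2 CPM in the normoxia samples. Its values were the most spread of the 10 genes, with a pooled SD of 0.30, and the groups overlapped. The change was -0.25 ± 0.17 (SE, limma-trend, adjusted p = 0.28, with the block 0.073), with a 95% interval from -0.62 to 0.12. In 3 of the 4 pairs Per2 was lower in normoxia, and in the pair numbered 4 it was higher by 0.22. Leaving out 1 sample moved the change to between -0.37 (without hypoxia sample 1) and -0.12 (without hypoxia sample 2), and none of these passed the test.

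Per3, the third period gene (chromosome 4, 151003652 to 151044665), was at 5.10, 5.45, 5.15 and 5.17 log2 CPM in the hypoxia samples and at 4.79, 5.04, 4.78 and 5.21 log2 CPM in the normoxia samples. Normoxia samples 1, 2 and 3 lay below every hypoxia sample, and normoxia sample 4 lay among them. Its change of -0.26 had a SE of 0.11 and an adjusted p of 0.083 in limma-trend alone, and a SE of 0.077 and an adjusted p of 0.0073 with the block. With both the block and the correction for GC content and length it was -0.22 (adjusted p = 0.0096). Without the block, the change was -0.36 without normoxia sample 4 (limma-trend, adjusted p = 0.026) and -0.18 without hypoxia sample 2 (adjusted p = 0.21). The correction for GC content and length alone gave -0.22 (limma-trend, adjusted p = 0.12).

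Cry1, the stronger repressor of the cryptochrome pair in fibroblast clocks (chromosome 10, 85131700 to 85185064), was at 2.50, 2.54, 2.64 and 2.52 log2 CPM in the hypoxia samples and at 2.72, 2.68, 2.6 and 2.57 log2 CPM in the normoxia samples. The groups overlapped, and the spread within them was the smallest of the 10 genes, with a pooled SD of 0.066. The change was 0.092 ± 0.12 (SE, limma-trend, adjusted p = 0.58), with a 95% interval from -0.16 to 0.34, on 70 to 130 counts per library.

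Cry2, the second cryptochrome (chromosome 2, 92403646 to 92434043), was at 5.19, 5.26, 5.13 and 4.97 log2 CPM in the hypoxia samples and at 5.04, 4.90, 4.95 and 4.98 log2 CPM in the normoxia samples. Hypoxia samples 1, 2 and 3 lay above every normoxia sample, and hypoxia sample 4 lay among them. The change was -0.17 ± 0.077 (SE, limma-trend, adjusted p = 0.11, with the block 0.059). Without hypoxia sample 4 it was -0.23 (limma-trend, adjusted p = 0.039), and without hypoxia sample 2 it was -0.13 (adjusted p = 0.24). The correction for GC content and length gave -0.058 (limma-trend, adjusted p = 0.60). Per kilobase of merged exons, Cry2 was at 3.29 ± 0.325 (SD, n = 4) times the level of Cry1 in hypoxia and at 2.73 ± 0.145 times in normoxia. The ranges of 2.96 to 3.59 and 2.54 to 2.89 did not overlap, though neither gene was called. Other ratios did overlap: Nr1d1 to Nr1d2 ran from 1.28 to 1.82 in hypoxia and from 1.28 to 1.46 in normoxia. Per3 to Per2 ran from 1.18 to 1.62 in hypoxia and from 1.30 to 1.40 in normoxia. How often such ratios fail to overlap among all genes was not counted.

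**Figure D2:**
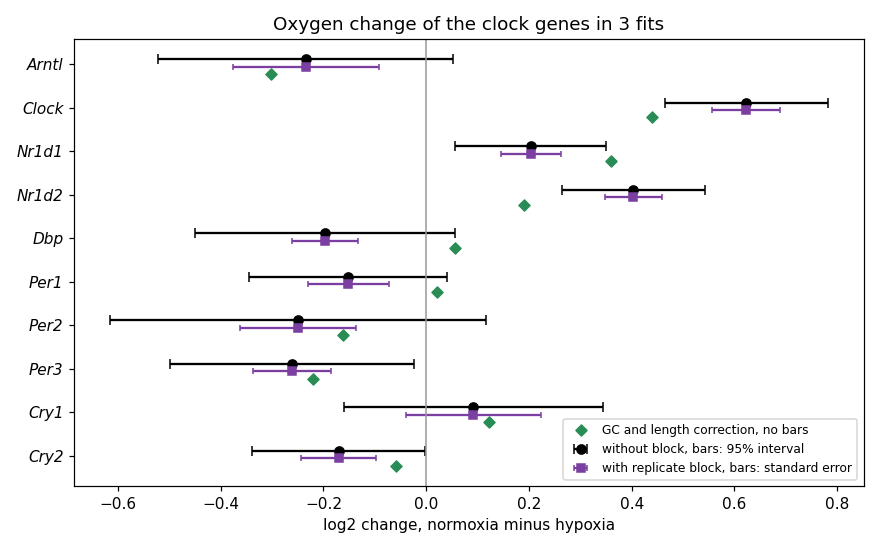
Log2 change (normoxia minus hypoxia) of the 10 clock genes in 3 fits. Black points with 95% intervals are limma-trend, purple squares with standard errors have the replicate number as a block, and green diamonds, drawn without error bars, follow the correction for GC content and length. Clock, Nr1d1 and Nr1d2 lie right of 0 in all 3 fits, whereas Dbp and Per1 lie left of 0 in the first 2 fits and at 0.055 and 0.021 after the correction.

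Compared per length of merged exons, the order of the transcripts was set by the REV-ERB genes and Dbp at the top and by Cry1 and Arntl at the bottom in each group. In hypoxia, Nr1d1 was at 23.5 ± 1.76 (SD, n = 4), Dbp at 18.9 ± 2.31 and Nr1d2 at 15.1 ± 1.17 CPM per kilobase, and the values of Dbp and Nr1d2 overlapped. Cry2 (5.56 ± 0.481), Per1 (4.85 ± 0.474), Per3 (3.87 ± 0.449), Per2 (2.89 ± 0.674) and Clock (2.58 ± 0.198) followed, each overlapping the next. Cry1, at 1.69 ± 0.0751, and Arntl, at 0.690 ± 0.0734 CPM per kilobase, stood apart from these and from each other.

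In normoxia, Nr1d1 was at 27.0 ± 1.26 (SD, n = 4), Nr1d2 between 19.7 and 20.7 and Dbp at 16.5 ± 2.53 CPM per kilobase, with no overlap between neighbours. Below them, Cry2 was at 4.92 ± 0.199 and Per1 at 4.36 ± 0.299. Clock, at 3.97 ± 0.196 CPM per kilobase, lay sixth and overlapped both Per1 and Per3 (3.23 ± 0.476), whose values overlapped those of Per2 (2.41 ± 0.456). Cry1 (1.81 ± 0.0913) and Arntl (0.581 ± 0.0275) were again last and did not overlap. Some positions depended on the length used. By the longest transcript, Dbp was first in hypoxia, at 30.7 against 26.6 for Nr1d1, with overlapping values. Per3 then also stood above Per1 and Clock above Per2 in hypoxia, with overlapping values. In normoxia, Dbp stood above Nr1d2 (26.9 against 23.2) and Clock above Per1 (5.60 against 5.25), with overlapping values.

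**Figure D3:**
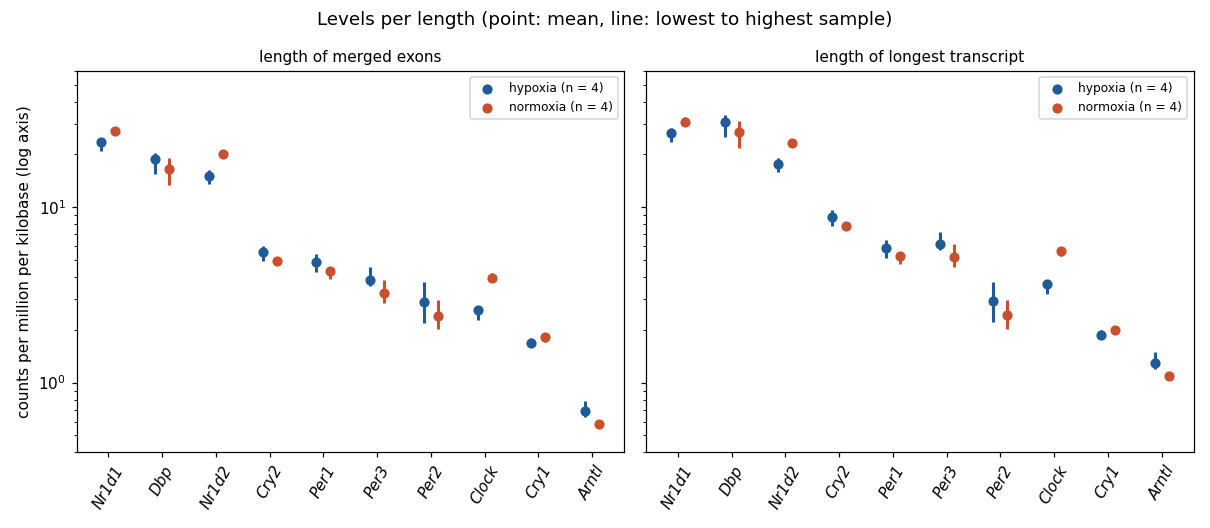
Levels of the 10 clock genes in CPM per kilobase on a log axis, with length taken from the merged exons (left) or the longest transcript (right). Points are means of 4 samples and lines run from the lowest to the highest sample. Nr1d1, Dbp and Nr1d2 lie above the other 7 genes and Arntl lies lowest, at 0.690 in hypoxia and 0.581 in normoxia on the left.

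Apart from oxygen, the clock genes differed in how far samples of a group lay from each other. The pooled SD of log2 CPM within groups was 0.30 for Per2, 0.21 for Dbp and 0.18 for Per3, and between 0.066 and 0.12 for the other 7 genes. For the 45 pairs of genes, the distances of the 8 samples from the mean of their own group were correlated. The correlations ran from -0.722 to 0.894, with a median of 0.219, and are given as a description without a test, since the 8 values of each gene come from the same 8 libraries and share their depth and culture.

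The highest correlation was between Per2 and Per3, with a Pearson r of 0.894 and a Spearman rho of 0.881, and r was 0.882 without the 2 samples farthest from the median of Per2. Per2 with Dbp gave an r of 0.776 and a rho of 0.762 (0.750 without those 2), and Per3 with Dbp gave 0.659 and 0.762 (0.787 without the 2 samples farthest for Per3). The samples numbered 1 were below their group mean for all 3 of these genes in each group, and those numbered 2 were above it. Clock with Cry2 gave an r of 0.864 and a rho of 0.762, and r fell to 0.383 without the 2 samples farthest for Clock. Per1 with Nr1d1 gave 0.765 and 0.548, and r fell to 0.0074 without the 2 samples farthest for Per1. These r values depended on those samples, though leaving them out also narrows the range of the first gene. Below 0, Arntl with Nr1d2 gave an r of -0.722 and a rho of -0.381 (-0.648 without 2 samples), and Nr1d1 with Nr1d2 gave -0.693 and -0.571.

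**Figure D4:**
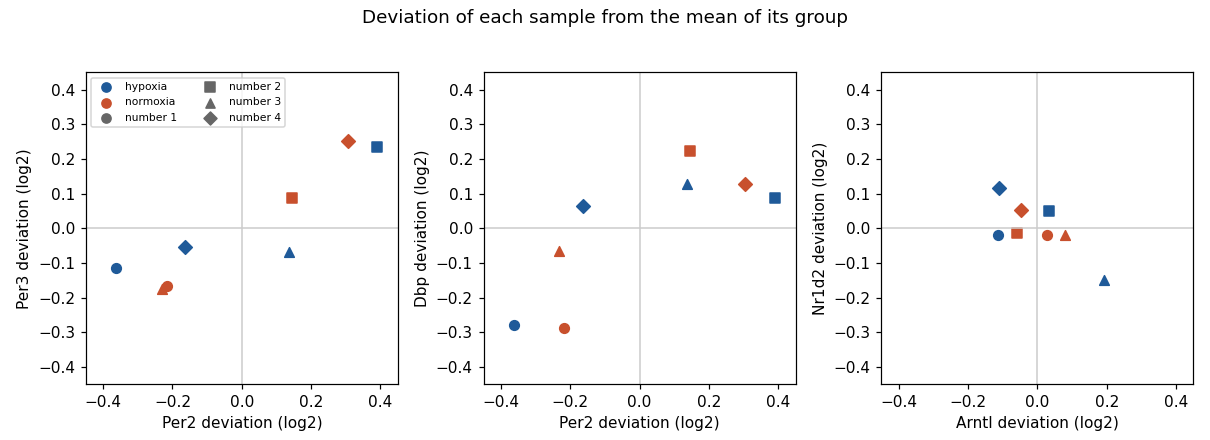
Deviation of each sample from the mean of its group (log2 CPM), for Per3 against Per2, Dbp against Per2 and Nr1d2 against Arntl. Blue points are hypoxia and orange points normoxia samples, and shapes give the replicate number. Per3 and Dbp rise with Per2 (r of 0.894 and 0.776 over 8 samples), whereas Nr1d2 falls with Arntl (r of -0.722), with hypoxia sample 3 at the far right.

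The genes whose within-group pattern was most like that of Arntl, of 9395 genes with a mean log2 CPM of at least 3, were Gpr108 (r of 0.974 over the 8 samples), March6 (0.950) and Abr (0.948). For Dbp, of 9394 such genes, they were Cyp4f13 (0.979), Zfp362 (0.964) and Cdkn2a (0.963). With 8 samples and this many genes, correlations of this size are the top of a long list.

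Around the 10 genes, 28 further genes of the clock machinery and its outputs were examined, of which 27 were tested. Of these, 5 were higher in normoxia, 3 were lower and 19 did not pass the test, beside 34.6% of all tested genes called. With samples scaled by library size alone 8 were higher and 0 lower, and with DESeq2 size factors 4 were higher and 4 lower. The median log2 change was -0.036, and 7 of the 27 did not overlap between groups, beside 32.6% of all genes. Among further repressors of the ARNTL and CLOCK dimer, Bhlhe41 (DEC2) rose by 0.38 ± 0.10 (SE, limma-trend, adjusted p = 0.015) and Cipc, which binds CLOCK, by 0.31 ± 0.11 (SE, adjusted p = 0.041). Bhlhe40 (DEC1), a target of hypoxia-inducible factors in many cells, was at 0.031 and Ciart at -0.17, and neither was called.

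Of 7 kinase genes that act on clock proteins 1 was higher and 1 lower, and of 4 ubiquitin ligase adaptors 1 was higher. Beside 34.6% of all tested genes called, these counts set neither group apart. Fbxw7, a ubiquitin ligase adaptor of which REV-ERB alpha is a substrate, rose by 0.56 ± 0.15 (SE, limma-trend, adjusted p = 0.011). Csnk1e, a kinase of PER proteins, rose by 0.27 ± 0.096 (SE, adjusted p = 0.046), and Csnk2b, the regulatory subunit of casein kinase 2, fell by 0.19 (SE 0.058, adjusted p = 0.025). Among outputs, Usp2, a deubiquitinase with a strong rhythm in many tissues, rose by 0.52 ± 0.12 (SE, adjusted p = 0.0050) and Tspan4 fell by 0.23 (SE 0.059, adjusted p = 0.010). After the correction for GC content and length, Csnk1e was at 0.41 (limma-trend, adjusted p = 0.0088). The calls of Csnk2b (-0.023, adjusted p = 0.80), Tspan4 (-0.0020, adjusted p = 0.98), Bhlhe41 (0.30, adjusted p = 0.056) and Cipc (0.27, adjusted p = 0.065) were lost in limma-trend with that correction. The groups overlapped for Csnk1e, which was called under 7 of 12 alternatives other than leaving out a sample. Its call was lost with edgeR (adjusted p = 0.058), DESeq2 (adjusted p = 0.075) and limma-voom (adjusted p = 0.068), among others. With the replicate block, Noct (0.46) was also called higher and Gsk3a (-0.17) and Gsk3b (-0.18) lower.

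Of these 8 calls, Fbxw7, Usp2 and Tspan4 held whichever sample was left out. The count was 4 without normoxia sample 1 and 5 without hypoxia sample 3. Over all genes, 4187 of 14625 and 3838 of 14596 were called in these fits, against 4970 of 14369 with all samples. Bhlhe41 was lost without normoxia sample 1 (adjusted p = 0.051). Csnk2b was lost without hypoxia sample 3 or normoxia sample 2 or 4 (adjusted p from 0.054 to 0.061), and Rora without the samples named with its values. Cipc was lost without hypoxia sample 3 or 4 or normoxia sample 1, 2 or 4 (0.072 to 0.14), and Csnk1e without any sample other than hypoxia sample 1 (0.068 to 0.13).

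For the signals that reset the clock in cultured cells, 12 genes of the glucocorticoid, cAMP and serum pathways were listed, targets and pathway components alike, of which 11 were tested, 6 were higher in normoxia and 1 was lower, with a median log2 change of 0.37, beside 34.6% of all genes called, 18.0% higher and 16.5% lower. The glucocorticoid targets Sgk1 (0.84 ± 0.17 SE, limma-trend, adjusted p = 0.0027), Errfi1 (0.70 ± 0.14 SE, adjusted p = 0.0026) and Klf9 (0.37 ± 0.097 SE, adjusted p = 0.011) rose, whereas Tsc22d3, which encodes the glucocorticoid-induced leucine zipper GILZ, fell by 0.59 (SE 0.094, adjusted p = 0.00066). Sgk1 was at 8.36, 7.49, 7.73 and 7.76 log2 CPM in the hypoxia samples and at 9.07, 8.47, 8.70 and 8.47 log2 CPM in the normoxia samples. Tsc22d3 was at 5.73, 6.26, 6.10 and 6.02 log2 CPM in the hypoxia samples and at 5.43, 5.43, 5.41 and 5.47 log2 CPM in the normoxia samples. For both genes the groups did not overlap, in opposite directions. The receptor gene Nr3c1 was at 0.17 (adjusted p = 0.13, with the block 0.012) and at -0.029 after the correction for GC content and length. Fkbp5 was at -0.090, and Zbtb16, at 0 to 6 counts, did not pass the filter.

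The cAMP and serum response genes Fos, Nr4a1 and Crem rose by 0.80 ± 0.20 (SE, limma-trend, adjusted p = 0.0093), 0.79 ± 0.21 (SE, adjusted p = 0.014) and 0.49 ± 0.16 (SE, adjusted p = 0.030), and Sik1 (0.24) and Creb1 (-0.025) were not called. The correction for GC content and length gave -0.24 for Creb1 (limma-trend, adjusted p = 0.026, with the block 0.0035) and 0.34 for Sik1 (adjusted p = 0.057, with the block 0.013). For Nr4a1 the groups overlapped, with normoxia sample 4 at 1.88 and hypoxia sample 3 at 1.89 log2 CPM. Its adjusted p reached 0.049 (limma-trend) when 1 sample was left out. Fos and Nr4a1 are immediate-early genes, as Per1 is. The call of Crem was lost after the correction for GC content and length (0.31, adjusted p = 0.15), and without hypoxia sample 2, 3 or 4 or normoxia sample 1, 2 or 3 (adjusted p from 0.055 to 0.11). The other 6 calls of these 11 genes held whichever sample was left out.

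**Figure D5:**
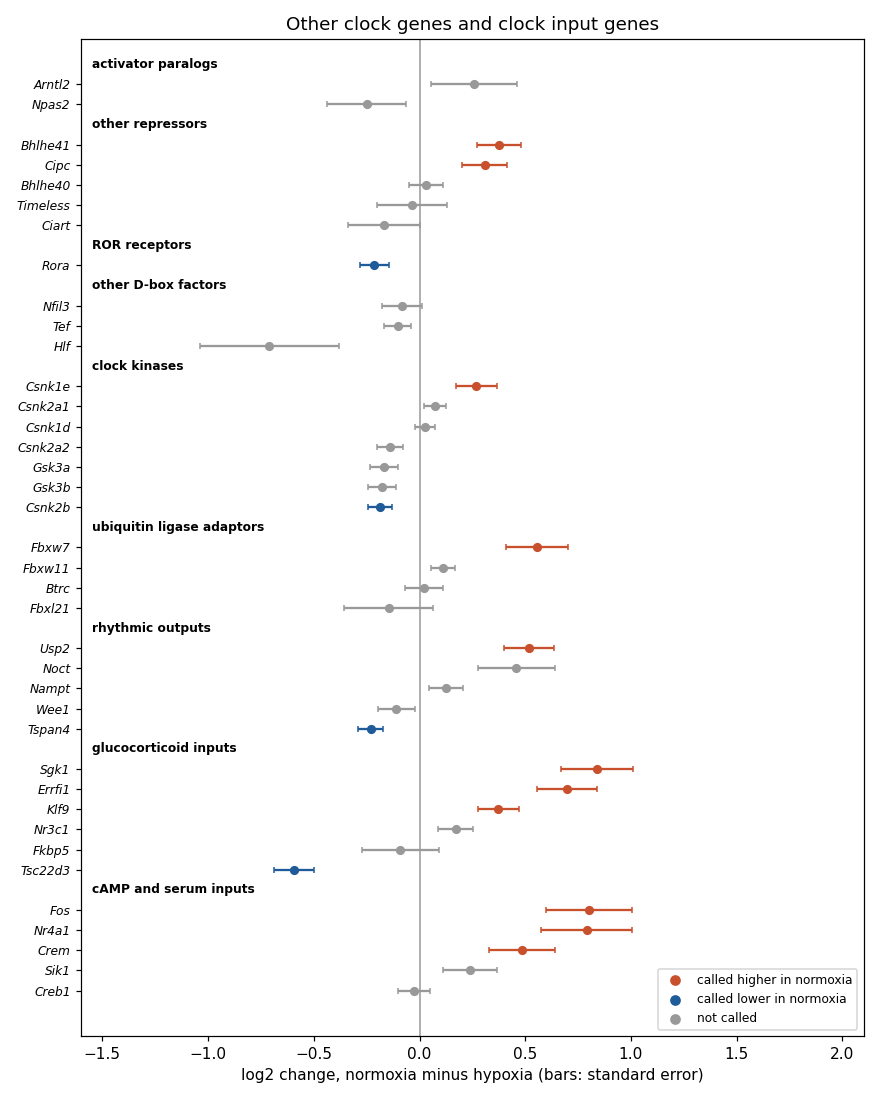
Log2 change (normoxia minus hypoxia) with standard errors for the tested genes around the clock, grouped by role. Orange points were called higher and blue points lower in normoxia (limma-trend, adjusted p under 0.05), and grey points were not called. Of 27 clock genes 5 were higher and 3 lower, and of 11 input genes 6 were higher and Tsc22d3, at -0.59, was lower.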

How the data were processed

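RNA-seq was measured in 8 samples of bone MSCs, 4 per oxygen level, grouped by the labels. The authors prepared NEBNext Ultra II libraries, sequenced single-end reads, mapped and counted them by zUMIs with STAR and featureCounts against mm10 (GRCm38) with Ensembl annotation, and deposited raw counts per gene, which are whole numbers and not normalized. How the counting treated strand and introns is not given in the sources used here. Symbols, positions, exon lengths and GC content came from GENCODE M21 (GRCm38), with a symbol for 53360 of 53465 identifiers, and positions count from 1.

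Low genes were removed by edgeR 4.0.16 (filterByExpr, minimum count 5), and counts were scaled by TMM, expressed as log2 CPM (prior count 3, which shrinks changes at low counts) and compared over all 8 samples with limma-trend (limma 3.58.1, R 4.3.3), with Benjamini-Hochberg adjustment over 14369 genes at 0.05. Changes are normoxia minus hypoxia. The fits were tested on simulated counts with 200 genes changed by 1 log2 unit. That simulation held no pairing and no trend with GC content, so it cannot show how well the block or the correction handles these. Alternatives were edgeR's quasi-likelihood test, DESeq2 1.42.0, limma-voom, other scalings, filters and prior counts, a correction by splines (5 degrees of freedom each) for GC content and length, and leaving out each sample. That correction also removes any true change that follows these properties.

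The study divided a sorted population between the oxygen levels, and same-numbered samples deviated together. The correlations over genes were 0.474, 0.275, 0.249 and 0.172 for numbers 1 to 4, all above the limit of 0.1. Differently numbered samples were not compared, and the sources do not say that equal numbers share a sort. The fit blocked on the number is given where it changes a call. The study calls the samples of a group independent replicates. Named genes are the 10 clock genes, of the further clock and input lists the genes that were called (at most 12 a list) or failed the filter, and the 3 genes most like Arntl and Dbp. Others named (Npas2, Arntl2, Bhlhe40, Ciart, Tef, Nfil3, Hlf, Noct, Gsk3a, Gsk3b, Nr3c1, Fkbp5, Sik1, Creb1, Thra, Sphk2 and the cell type markers) were chosen for their role or after their values were seen. The genes and lists were chosen with earlier results of these data known, and 2 genes of the further lists are not reported here.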

Additional observations from a re-analysis of the deposited data

Results flagged for a closer look

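In 80 sets of 4 samples (in each oxygen group, the total counts, the 10 clock genes and the genes of the further clock and input lists that were called or are named), 10 held a lone sample whose distance to its nearest neighbour, as a share of the range of the group, exceeded the 95% limit of Dixon's test. About 1 in 20 such sets, or 4 of 80, would by chance. The sets share the same 8 libraries, and some genes were named after their values were seen. The 10 against 4 is therefore no test of an excess.

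The total count of hypoxia sample 1 was 25132141, against at most 13219647 in the other hypoxia samples (ratio 0.976). Among the clock genes, Clock was at 4.98 log2 CPM in hypoxia sample 4, against 5.19 to 5.23 in the others (ratio 0.862). Dbp was at 5.54 log2 CPM in hypoxia sample 1, against 5.88 to 5.94 (ratio 0.844). Nr1d2 was at 6.81 log2 CPM in normoxia sample 4, against 6.74 to 6.75 (ratio 0.918), a gap that is small on the scale of its oxygen change. Errfi1, a glucocorticoid target, was at 4.93 log2 CPM in hypoxia sample 1, against 4.44 to 4.50 (ratio 0.888). Fbxw7 was at 3.63 log2 CPM in hypoxia sample 2, against 3.09 to 3.17 (ratio 0.847), and the immediate-early gene Fos was at 3.34 log2 CPM in normoxia sample 3, against 2.72 to 2.82 (ratio 0.843). Npas2 was at 1.63 log2 CPM in normoxia sample 1, against 2.39 to 2.43 (ratio 0.948). In hypoxia sample 4, Creb1 was at 5.03 log2 CPM, against 5.22 to 5.25 (ratio 0.842), and Sik1 at 2.91 log2 CPM, against 3.36 to 3.40 (ratio 0.913).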

How the results depend on the processing

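Clock and Nr1d2 were called higher under each of the 12 alternatives other than leaving out a sample, and with each of the 8 samples left out. Nr1d1 was lost without the filter on low counts (adjusted p = 0.052) and with 4 of the 8 samples left out. Of 200 values of single clock genes under alternatives, 185 kept direction and call, 5 lost and 6 gained a call, and 4 changed sign. With the replicate block, which assumes pairing by number, the clock genes called went from 3 to 5. With the block and the correction for GC content and length they went from 3 to 4. The blocked counts were 11 of 27 further clock genes and 8 of 11 input genes, beside 46.0% of all genes. Leaving out 1 sample gave 2 to 4 clock genes, 4 to 9 further clock genes and 6 to 7 input genes. Over all genes, the calls then ran from 3838 of 14596 (without hypoxia sample 3) to 5423 of 14616 (without hypoxia sample 1). The correction for GC content and length, with or without the block, turned Per1 to 0.021, Dbp to 0.055, Gsk3a to 0.047, Nfil3 to 0.051 and Nr3c1 to -0.029, and the cause was not tested. Scaling by library size alone turned Nfil3 to 0.0058 and Creb1 to 0.063. Leaving out 1 sample gave values of either sign for Fkbp5 (-0.22 to 0.023) and Bhlhe40 (-0.018 to 0.11). With the length of the longest transcript, added after seeing the data, the ratio of Nr1d1 to Dbp went from 1.25 to 0.865 in hypoxia and from 1.64 to 1.14 in normoxia. Leaving out 1 sample, also added later, moved the correlation of Per2 with Dbp to between 0.654 and 0.850, and that of Per2 with Per3 to between 0.833 and 0.968. Scaling by library size alone moved the median change of all genes by 0.087. Depth limits Arntl and Cry1 most, at 56 to 130 counts.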
